A study of Rattus norvegicus with 24 samples.

Results

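A stretch of 5.5 Mb of rat chromosome 1 (Rnor6), from Det1, which starts at 140519702, to Cfap161, holds 58 of the genes for which the study lists coordinates (Ensembl v88), among them Mfge8 and Pex11a. The stretch was set around these 2 genes with earlier results of these rats known, members were then taken by position, and they had to reach a level of 1 CPM (reads scaled to the size of the library) in at least 6 of 23 rats. All 58 genes listed in the stretch reached it, out of 1216 listed chromosome 1 genes and 13838 genes tested in all. The filter was applied to all rats together, so a gene could have reached it through the line in which it was higher. Before scaling by TMM, 52 members had 6 such rats in each line, Wdr93 and Hapln3 had them in bLRs alone, Snrpep2 in bHRs alone, and Acan, Mesp2 and AC114460.1 through both lines together.

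Hippocampal RNA was sequenced from 24 F0 adults of 2 selectively bred lines, with 6 males and 6 females each of bred High Responders (bHR) and bred Low Responders (bLR), taken at generation 37 of selection for a high or a low locomotor response to novelty. All had been tested for locomotor activity and on an elevated plus maze. Males were 151 to 165 and females 187 to 192 days old by their own labels, while the study's protocol gives a younger range, and the study states that the sexes were dissected on separate days, so sex, age and day of dissection cannot be told apart. The labels give 12 family codes, H02 to H12 for bHRs and L01 to L10 for bLRs, each with 1 male and 1 female, although the study's protocol speaks of distinct families for all rats. A bHR female of family H05 with a RIN of 6.3 was left out, which leaves 11 bHRs and 12 bLRs. Reads counted on genes per rat ran from 16824899 to 28443049 (median 22044668), so that 3 counts stood for 0.105 to 0.178 CPM. Of 40 marker genes of neurons, glia, vessels, choroid plexus, ependyma and red cells, 11 could be paired with a gene in the table. No marker of microglia or of interneurons was among the 11. Principal neurons rested on Slc17a7 alone, oligodendrocytes on Mag alone and vessels on Acta2 alone. None of the 11 was called for lineage (FDR 0.62 to 0.99), and the summed level of the 10 other than Hbb ran from 1443 to 3083 CPM in bHRs and from 1861 to 2981 CPM in bLRs. The samples were whole tissue, in which fewer cells of a type and less RNA per cell cannot be told apart.

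Genes that lie side by side on a chromosome can share promoters, enhancers and, in bred lines, the same inherited block of sequence. Mfge8 encodes a secreted glycoprotein that tethers dying cells to phagocytes, and Pex11a encodes a membrane protein that helps peroxisomes divide. Both stand among genes of very different function, from Acan, which encodes the aggrecan of the perineuronal net, to Polg, the polymerase of mitochondrial DNA, and Homer2, a scaffold of the postsynaptic density.

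Pex11a (ENSRNOG00000015003, minus strand, chr1:141474180-141481315) and Wdr93 (ENSRNOG00000026514, plus strand, chr1:141488272-141527475), which encodes a protein with WD repeats, stand head to head, with 6956 bases between the annotated gene ends in Rnor6. In the newer build GRCr8, the RefSeq promoter windows (250 bases before to 50 after the start, 300 in all) place the starts of both genes only 84 bases apart, at chr1:143096491 for Pex11a and at chr1:143096575 for Wdr93. Their windows therefore share 183 bases, read in opposite directions. The windows are shown 5′ to 3′ on the strand of each gene, because both genes had their higher values in bLRs. Capitals mark the 85 bases from one start to the other, which are reverse complements of each other in the pair.
Pex11a, GRCr8, minus strand, chr1:143096442-143096741: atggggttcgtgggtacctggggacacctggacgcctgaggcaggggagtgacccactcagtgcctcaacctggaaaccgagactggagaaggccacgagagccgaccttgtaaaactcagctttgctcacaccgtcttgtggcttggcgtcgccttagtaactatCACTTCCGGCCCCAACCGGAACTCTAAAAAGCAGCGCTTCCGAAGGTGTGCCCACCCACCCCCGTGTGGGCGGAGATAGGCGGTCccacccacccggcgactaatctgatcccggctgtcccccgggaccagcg
Wdr93, GRCr8, plus strand, chr1:143096325-143096624: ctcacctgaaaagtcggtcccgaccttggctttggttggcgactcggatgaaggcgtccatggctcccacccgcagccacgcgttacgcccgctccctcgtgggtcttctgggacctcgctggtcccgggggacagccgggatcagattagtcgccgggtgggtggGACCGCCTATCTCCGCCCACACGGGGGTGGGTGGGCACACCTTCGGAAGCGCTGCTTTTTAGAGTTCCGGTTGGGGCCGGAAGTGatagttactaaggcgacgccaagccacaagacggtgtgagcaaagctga

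Both strands were searched for 4 motifs. The motif of the ETS family of transcription factors was spelled CCGGAAGT. The motif known as the GC box, which Sp1 binds, was spelled GGGCGG. The motif bound by the factor NF-Y was spelled CCAAT. The motif of the core promoter known as the TATA box was spelled TATAAA, and none of the 4 spellings contains another. The stretch in capitals held 1 CCGGAAGT, read in the sense direction of Wdr93, and 1 GGGCGG, read in the sense direction of Pex11a, and neither window held CCAAT or TATAAA. Of 27457 RefSeq promoters of the same length, 4.01% held CCGGAAGT on either strand and 34.9% held GGGCGG. Among the 46 members with a RefSeq window, 7 held CCGGAAGT (Ap3s2, Det1, Ngrn, Pex11a, Polg, Saxo2 and Wdr93) and 31 held GGGCGG, with a median GC content of 60.0% beside 52.3% over all windows. The sites of Pex11a and Wdr93 are the same stretches of DNA, counted for each of these genes. Windows that overlap head to head, as this pair does, were found for 4 of the 46 (8.70%), beside 9.62% of all windows. The other members were Cib1 and Ap3b2, each facing a gene outside the list.

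The first question was whether the lines differed in the expression of these genes. No member passed FDR < 0.10 for lineage in edgeR's quasi-likelihood test with sex, %rRNA and %intergenic reads in the model, where 1.34% of all genes tested did (185 genes), and the lowest FDR among members was 0.144. At an unadjusted p under 0.05 stood 10 of the 58 members (17.2%), beside 9.96% of all genes, while DESeq2 called 2 members (3.45%, beside 2.38% of all genes) and limma-voom none (beside 1.40%). Without the bHR male of family H02 the shares were 5 of 57 members (8.77%) and 9.51% of all genes. In males alone they were 5 of 58 members and 1157 of 13778 genes, and in females alone 3 of 58 members and 842 of 14048 genes. Of the 10 members, 8 had higher values in bLRs, a direction taken at that threshold by 5.72% of all genes, and 2 had lower values, as did 4.23% of all genes. The lines overlapped in CPM for every one of the 58, and only 0.0361% of all genes had lines that did not.

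Of Mfge8, Pex11a and Wdr93, called the candidates here, Wdr93 had the largest difference. The study also counts Fanci and Unc45a among its top candidate genes. Its level was 0.161 to 1.40 CPM in bHRs (median 0.519) and 0.524 to 1.65 CPM in bLRs (median 1.18), from 5 to 40 reads per rat. It passed the filter through bLRs, of which 8 reached 1 CPM before scaling, beside 1 bHR, so its presence among the members leans on its higher line. All 12 bLRs lay above the bHR median, and 6 of the 11 bHRs lay below every bLR. The Log2FC (bLR vs. bHR) was 0.91 ± 0.29 (SE, FDR = 0.176), and it was 0.86 in males and 0.87 in females when each sex was read from the interaction model. The 2 highest bHRs were the male and the female of family H12, at 1.40 and 1.06 CPM, and the 2 lowest bLRs were females of families L06 and L07, at 0.544 and 0.524 CPM.

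Pex11a showed the same direction with more overlap. It ran from 9.36 to 24.3 CPM in bHRs (median 17.2) and from 13.1 to 25.8 CPM in bLRs (median 21.1). The 3 lowest rats were all bHRs and the 3 highest all bLRs, and the other 17 rats overlapped. Its Log2FC was 0.39 ± 0.12 (SE, FDR = 0.144), with the smallest p for lineage among members. The level of Pex11a went up by 0.26 log2 units per percentage point of rRNA (FDR = 0.00446) and down by 0.20 per percentage point of intergenic reads (FDR = 0.00114). With no technical terms in the model the Log2FC was 0.24 (FDR = 0.639), with %rRNA as the only one it was 0.23 (FDR = 0.389), and the median %intergenic was 9.44 in bHRs and 10.8 in bLRs.

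Mfge8 (ENSRNOG00000017510, minus strand, chr1:140845465-140860894) pointed the other way. Its level was 52.9 to 177 CPM in bHRs (median 97.4) and 34.0 to 127 CPM in bLRs (median 89.4), so that 3 bHRs exceeded every bLR and 2 bLRs fell below every bHR. The Log2FC was -0.39 ± 0.14 (SE, FDR = 0.264), and -0.24 (FDR = 0.547) without the bHR female of family H08. The 2 highest of all 23 rats were the male and the female of bHR family H02, at 177 and 158 CPM. Those rats also had 2 of the 3 lowest Pex11a levels in the study, at 10.5 and 9.36 CPM. The H02 male had the highest %intergenic of the bHRs (13.5) and the H02 female the lowest %rRNA (1.23), and Mfge8 went down by 0.45 log2 units per percentage point of rRNA (FDR = 0.000142). The part of these technical measures in the levels of these rats was not tested.

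**Figure D1:**
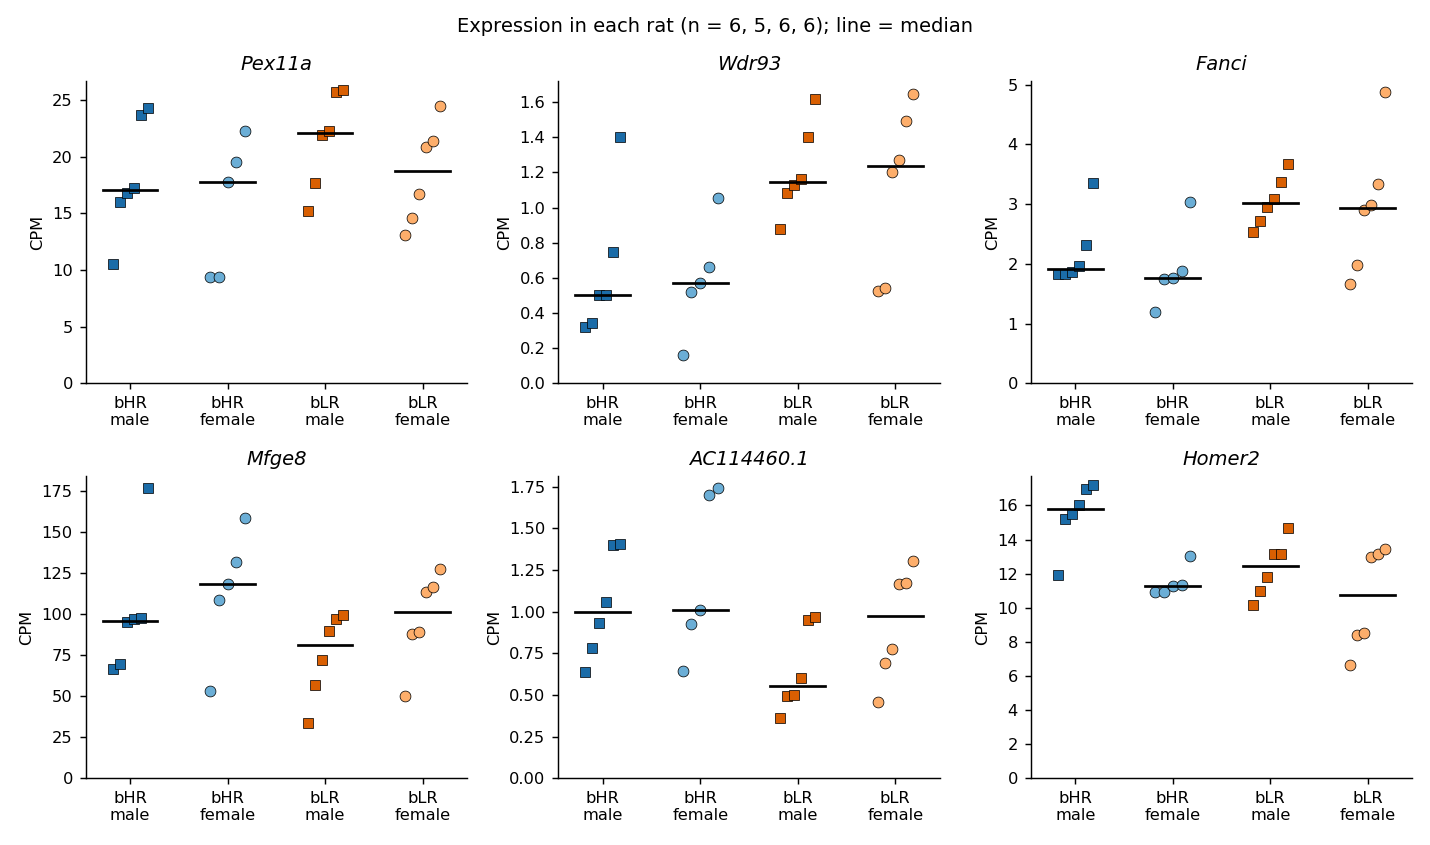
Expression (CPM, linear axes from 0) of 6 genes in each of the 23 rats, by line and sex, with horizontal lines at the medians. Wdr93 separates the lines most in the top row, with all 12 bLRs above the bHR median, Mfge8 reaches its highest values in 2 bHRs (177 and 158 CPM), and Homer2 is highest in bHR males.

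Fanci, whose product works with Fancd2 in the repair of DNA crosslinks, lies between Mfge8 and Pex11a. It ran from 1.20 to 3.35 CPM in bHRs (median 1.86) and from 1.67 to 4.88 CPM in bLRs (median 2.97), and 11 of the 12 bLRs lay above the bHR median. The Log2FC was 0.52 ± 0.17 (SE, FDR = 0.211). As for Wdr93, the 2 highest bHRs were those of family H12, at 3.35 and 3.03 CPM. Its map neighbor Polg, read from the opposite strand with 47 bases between the gene ends, ran from 6.89 to 15.6 CPM in bHRs and from 8.35 to 18.6 CPM in bLRs, with a Log2FC of 0.25 ± 0.10 (SE, FDR = 0.331).

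The remaining members at an unadjusted p under 0.05 included 2 loci with clone-based names. AC114460.1 was at 0.636 to 1.74 CPM in bHRs (median 1.01) and 0.360 to 1.31 CPM in bLRs (median 0.734), with a Log2FC of -0.54 ± 0.18 (SE, FDR = 0.221) and 5 to 59 reads per rat. AABR07004404.1, which stands head to head with Arpin at a distance of 2233 bases, was at 0.904 to 5.70 CPM in bHRs and 1.85 to 7.72 CPM in bLRs, with a Log2FC of 0.52 ± 0.18 (SE, FDR = 0.266), and of 0.25 (FDR = 0.503) with %rRNA as the only technical term and 0.38 (FDR = 0.730) with none. For AC114460.1, 4 bHRs exceeded every bLR and 5 bLRs lay below every bHR, and for AABR07004404.1, 2 bLRs exceeded every bHR and 3 bHRs lay below every bLR.

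Cpeb1, which binds the cytoplasmic polyadenylation element of mRNAs and controls their translation, was at 37.1 to 67.6 CPM in bHRs and 41.8 to 112 CPM in bLRs. Of the 12 bLRs, 6 exceeded every bHR (Log2FC 0.27 ± 0.10 SE, FDR = 0.323, and 0.51 without technical terms). Aen, a nuclease induced by p53, had a Log2FC of 0.26 ± 0.10 (SE, FDR = 0.373, and 0.21 to 0.40 over other settings). Unc45a, a chaperone of myosins, had 0.21 ± 0.08 (SE, FDR = 0.362, and 0.16 to 0.41 over other settings). Next by p stood 2 genes with lower values in bLRs. They were the lipid carrier Stard5, with a Log2FC of -0.26 ± 0.13 (SE, FDR = 0.548), and the mitochondrial isocitrate dehydrogenase Idh2, with -0.15 ± 0.08 (SE, FDR = 0.562). Without the bHR male of family H02 their Log2FCs were -0.011 for Stard5 and -0.065 for Idh2, and without technical terms that of Idh2 was -0.25. All 12 of these members had the same direction in males and in females.

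Leaving out any of 4 rats brought members past the threshold, in 1 case along with many more genes elsewhere. Without the H12 female, 6 members were called, namely Pex11a (FDR = 0.0183), AABR07004404.1 (0.0255), Mfge8 (0.0281), Fanci (0.0618), Wdr93 (0.0661) and AC114460.1 (0.0732). They were 10.3% of members, and calls over all genes went from 185 to 436 (3.16%) in the same fit. Without the H12 male, 1 member was called, Wdr93 (FDR = 0.0806), as it was without the bLR female of family L07 (0.0891). Without the bLR male of family L03, Pex11a was called (FDR = 0.0797). In these fits 1 member was 1.72% to 1.75% of those tested, beside 1.17%, 1.22% and 1.49% of all genes. When the bHR female of low RIN was added back, 3 members were called, Wdr93 (FDR = 0.0542), Pex11a (0.0866) and AABR07004404.1 (0.0886), or 5.17% of members beside 2.12% of all genes. The H12 female had the highest Pex11a level of the bHR females (22.2 CPM) and the lowest Mfge8 level of all bHRs (52.9 CPM), with 2.26% rRNA and 9.55% intergenic reads.

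**Figure D2:**
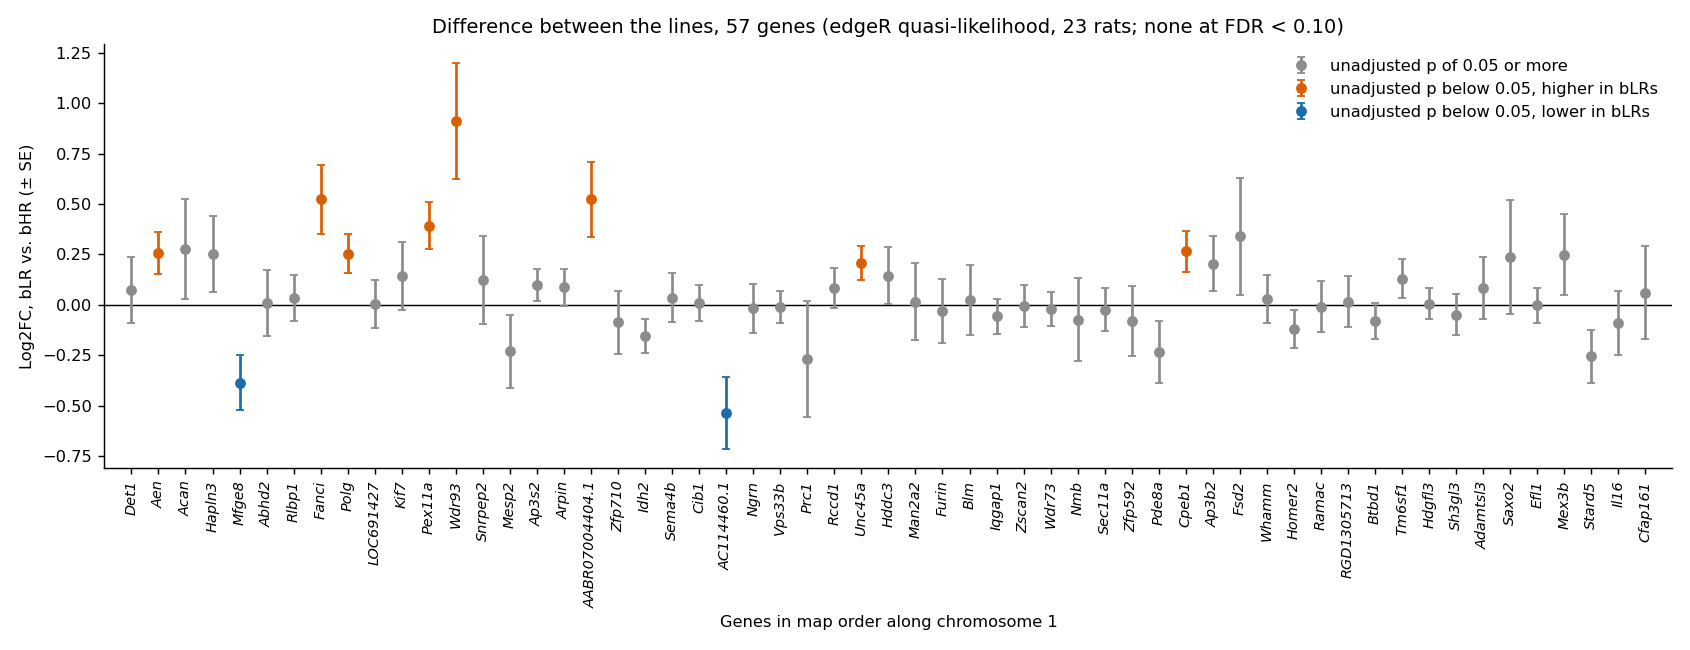
Log2FC (bLR vs. bHR, points) with its standard error (bars) for 57 genes in map order, from edgeR's quasi-likelihood fit over 23 rats. Orange and blue points are the 10 genes at an unadjusted p under 0.05, of which 9 lie between Aen and Unc45a and Cpeb1 stands apart to the right.

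Of the 32 members that start within 1 Mb of Pex11a, itself the member with the smallest p, 9 had an unadjusted p under 0.05, beside 1 of the other 26 (Cpeb1), a description from which nothing is read. In direction, 35 members had higher and 23 had lower values in bLRs, a split (60.3% higher, beside 6780 of 13838 genes in all) that became 32 to 26 with RLE size factors, upper quartile normalization or DESeq2, 37 to 21 with limma-voom and 29 to 29 without the technical terms. Of 57 pairs of map neighbors, 35 (61.4%) had the same sign, beside 50.8% of 1158 other neighbor pairs on chromosome 1. The longest run of one sign was 9 genes with higher values in bLRs, from Abhd2 to Snrpep2, and in 4 of those 9 (Fanci, Polg, Pex11a and Wdr93) the sign turned in none of 10 other settings and 23 fits with a rat left out, while LOC691427, at 0.0040, was smaller than the shift in the median of all genes under the other scalings (-0.012 and -0.0096). Mfge8 lies directly before that run with the opposite sign, 613 kb from Pex11a. The median Log2FC of members was 0.02, and that of all genes -0.0035.

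The 5.5 Mb on either side hold few listed genes. Of 10 below the stretch, 2 had an unadjusted p under 0.05 and the median Log2FC was 0.15. Of 11 above it, none did by edgeR (lowest FDR 0.521) and the median was 0.04. The median size of a difference, without its sign, was 0.09 log2 units in members, 0.10 in other listed chromosome 1 genes and 0.10 in all genes.

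By role, the members were read in 10 groups, and none of the groups held a called member for lineage. Among 4 genes tied to cilia and axonemes (Kif7, Wdr93, Saxo2 and Cfap161), all 4 Log2FCs were positive (median 0.19), although Wdr93 alone had an unadjusted p under 0.05 and Cfap161 turned in 2 of 10 other settings and 4 of 23 fits with a rat left out. All 4 transcription factors (Zfp710, Zscan2, Zfp592 and Mesp2) were negative (median -0.08, lowest FDR 0.739), but Zscan2 turned in 9 of the 23 fits with a rat left out and Zfp592 in 2 of them and in 2 of the 10 other settings. Of 5 genes of DNA repair and cell division, Fanci and Aen were the 2 at an unadjusted p under 0.05, and Prc1, which bundles the spindle midzone, had -0.27 ± 0.29 (SE). The 9 genes of mitochondria, peroxisomes and metabolism included Pex11a and Polg at that threshold and had a median of 0.03.

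Of 7 genes for matrix, secreted and surface proteins, Mfge8 was the 1 at an unadjusted p under 0.05. The link protein gene Hapln3, its neighbor, had 0.25 ± 0.19 (SE), and Acan had 0.28 ± 0.25 (SE, and 0.26 to 0.61 over other settings) at 0.184 to 1.97 CPM. The 7 genes of vesicle traffic, which include the AP-3 subunits Ap3s2 and Ap3b2 and the convertase Furin, had FDRs of 0.669 or more, and the neuronal subunit Ap3b2 had the largest Log2FC of them (0.20 ± 0.14 SE, and 0.19 to 0.53 over other settings). The medians of the remaining 4 groups ran from -0.04 (ubiquitin adaptors and signals) to 0.11 (RNA and ribosome).

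The second comparison was between the sexes. Homer2 (ENSRNOG00000061450, minus strand, chr1:143443300-143535583) was the 1 member called, lower in females, where 0.354% of all genes were called. Its level was 10.1 to 17.2 CPM in males (median 13.9) and 6.66 to 13.5 CPM in females (median 11.3), and 6 of the 12 males exceeded every female. The Log2FC (female vs. male) was -0.39 ± 0.09 (SE, FDR = 0.0846), a call lost when any of 20 of the 23 rats was left out and under 8 of 11 other settings. By group, bHR males had a median of 15.8 CPM, bHR females 11.3, bLR males 12.5 and bLR females 10.8. The map neighbors of Homer2 were not called, with medians in males and females of 3.50 and 4.07 CPM for Whamm, an actin nucleation factor, and of 145 and 142 CPM for Ramac, which activates the mRNA cap methyltransferase.

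At an unadjusted p under 0.05 stood 5 members for sex, beside 11.2% of all genes. Nmb, which encodes the neuropeptide neuromedin B, was at 3.65 to 15.4 CPM in males and 2.94 to 8.08 CPM in females. Of the 12 males, 8 exceeded every female, and the Log2FC was -0.67 ± 0.19 (SE, FDR = 0.188, and 0.0986 in DESeq2). The other 3 were Hapln3 with -0.41 ± 0.18 (SE), Wdr73 with -0.18 ± 0.08 (SE) and the matrix gene Adamtsl3 with 0.41 ± 0.15 (SE), with FDRs of 0.334 to 0.413. With 1 rat left out, members at that threshold numbered 3 to 10. Without the bLR male of family L03 they were 10 of 57, beside 1799 of 13786 genes.

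No gene was called for an interaction of lineage and sex (0.0% of all genes in edgeR), and 2.35% had an unadjusted p under 0.05. Among members these were 2, Furin (interaction 0.81 ± 0.35 SE, and 0.46 with all 24 rats) and the endophilin gene Sh3gl3 (0.44 ± 0.18 SE), each with an FDR of 1.00. Furin had a Log2FC (bLR vs. bHR) of -0.18 in males and 0.63 in females. Members at an unadjusted p under 0.05 for the interaction numbered 0 to 4 with 1 rat left out. With %intergenic added to the model they numbered 5, beside 1143 of 13838 genes.

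More members were called for the technical measures than for lineage. %rRNA was called for 39 of 58 members (20 up, 19 down), beside 76.4% of all genes. %intergenic was called for 41 members (19 up, 22 down), beside 68.8% of all genes. Only 9 members were called for neither. AABR07004404.1 had a slope of 0.83 ± 0.12 (SE) log2 units per percentage point of rRNA, while Acan had -0.75 ± 0.18 (SE) and Furin -0.70 ± 0.11 (SE). Of the 10 members with the smallest p for lineage, Wdr93, Fanci and Aen were called for neither measure. For %rRNA, however, Fanci had an FDR of 0.10007, just above the threshold, and Wdr93 had a slope of 0.28 ± 0.18 (SE).

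**Figure D3:**
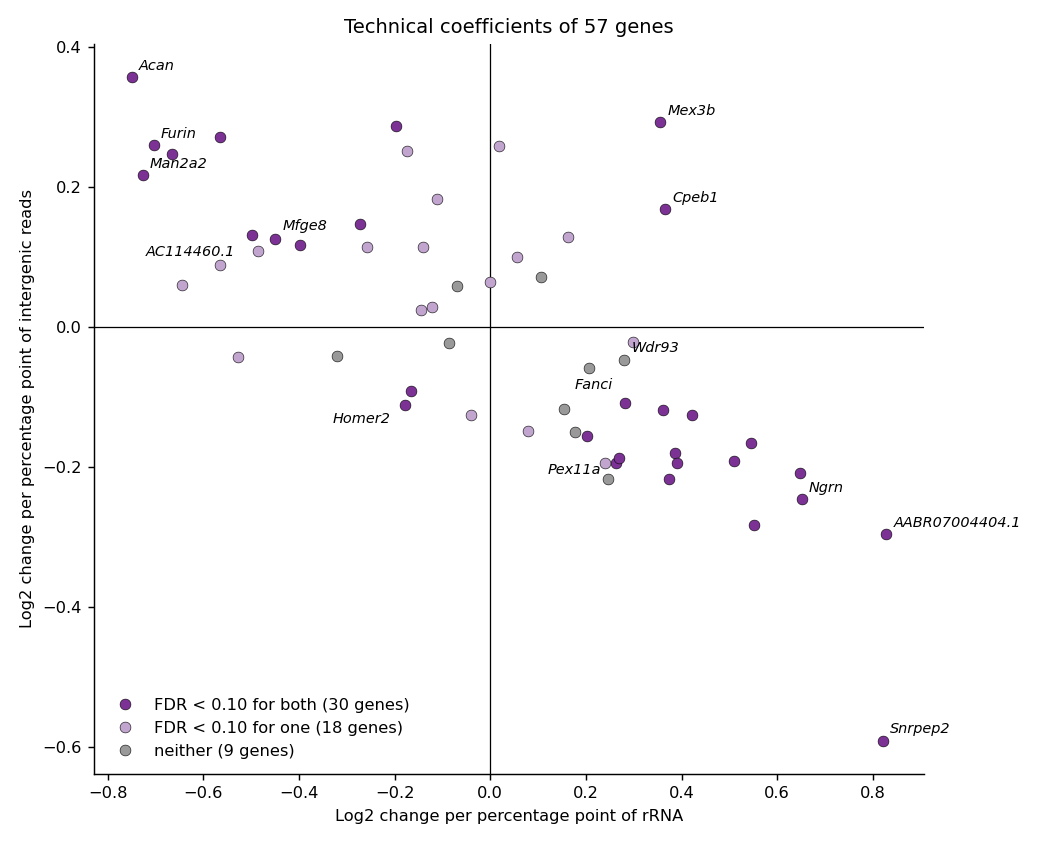
Each point is 1 of 57 genes, placed by its log2 change per percentage point of rRNA (horizontal) and of intergenic reads (vertical) in the fit over 23 rats. Most genes lie along a falling diagonal, with AABR07004404.1 toward the right at 0.83, and the colors give how many genes passed FDR < 0.10 for both measures (30), for one (18) or for neither (9).

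The third question was whether map neighbors varied together among rats of one line. Line, sex, %rRNA and %intergenic were removed from log2 CPM, and residuals of the 57 neighbor pairs were correlated over 23 rats with 100000 permutations. After Benjamini-Hochberg adjustment over the 57 pairs, 14 had a permutation p < 0.10, of which 7 were positive and 7 negative. All 14 had the same sign in bHRs and in bLRs. They were picked by r over the same rats pooled, which leaves little room for opposite signs, so nothing is read from that. An absolute r of 0.5 or more was found in 12 of the 57 pairs (21.1%), beside 24.4% of 1158 other neighbor pairs on chromosome 1, so close neighbors in this stretch did not stand out by that count. The median r was -0.04 between members that were neighbors and 0.02 between members that were not, and the genes of a pair share each rat's library.

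The strongest pair was Ramac and RGD1305713, which lie tail to tail 11457 bases apart. They had r = 0.87 and rho = 0.87 (two-sided permutation tests, p = 1e-05 each, the smallest that 100000 permutations can give, adjusted p = 0.00057 and 0.000285), with r = 0.92 in bHRs, 0.80 in bLRs and 0.83 without the 2 rats farthest from the median. The next pairs lay together downstream of Wdr93. Ap3s2 and Arpin, whose products serve AP-3 coats and restrain the Arp2/3 complex, had r = 0.80 (adjusted permutation p = 0.00057, rho = 0.86). Arpin and the facing locus AABR07004404.1 had r = 0.76 (adjusted permutation p = 0.00057, rho = 0.66), with 0.90 in bHRs and 0.43 in bLRs, and 0.61 without the 2 farthest rats.

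Tm6sf1 and Hdgfl3, whose 3′ ends overlap on opposite strands, had r = 0.74 (adjusted permutation p = 0.00057, rho = 0.72), with 0.68 in bHRs and 0.78 in bLRs. The authors counted reads by strand, and whether reads of one gene of this pair reached the other was not tested. Man2a2 and Furin, both genes of the secretory pathway, had r = 0.74 (adjusted permutation p = 0.00125, rho = 0.74). The 2 other positive pairs were Cpeb1 and Ap3b2 (r = 0.62, adjusted permutation p = 0.0123, rho = 0.63, but r = 0.36 and adjusted permutation p = 0.140 when %rRNA and %intergenic were not removed) and Wdr93 with Snrpep2, which lies within Wdr93 on the opposite strand (r = 0.48, adjusted permutation p = 0.0844, rho = 0.49).

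The other 7 pairs were negative. Aen and Acan had r = -0.68 (adjusted permutation p = 0.00361, rho = -0.75) and -0.75 in each line, but -0.37 (adjusted permutation p = 0.139) when %rRNA and %intergenic were not removed. Hddc3 and Man2a2 had r = -0.64 (adjusted permutation p = 0.00676, rho = -0.62), and Sec11a and Zfp592 had r = -0.63 (adjusted permutation p = 0.0106, rho = -0.66). AC114460.1 was negatively related to both of its neighbors, to Cib1 with r = -0.56 (adjusted permutation p = 0.0274, rho = -0.54) and to Ngrn with r = -0.52 (adjusted permutation p = 0.0490, rho = -0.53). In bHRs r was -0.75 and -0.76 and in bLRs -0.19 and -0.21, a difference that was not tested. Without the 2 farthest rats of each pair r was -0.29 and -0.33, so that each relation rested in part on the rats left out for it. Abhd2 and Rlbp1 had r = -0.56 (adjusted permutation p = 0.0274, rho = -0.55) and Stard5 and Il16 had r = -0.49 (adjusted permutation p = 0.0796, rho = -0.40, adjusted p = 0.162).

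**Figure D4:**
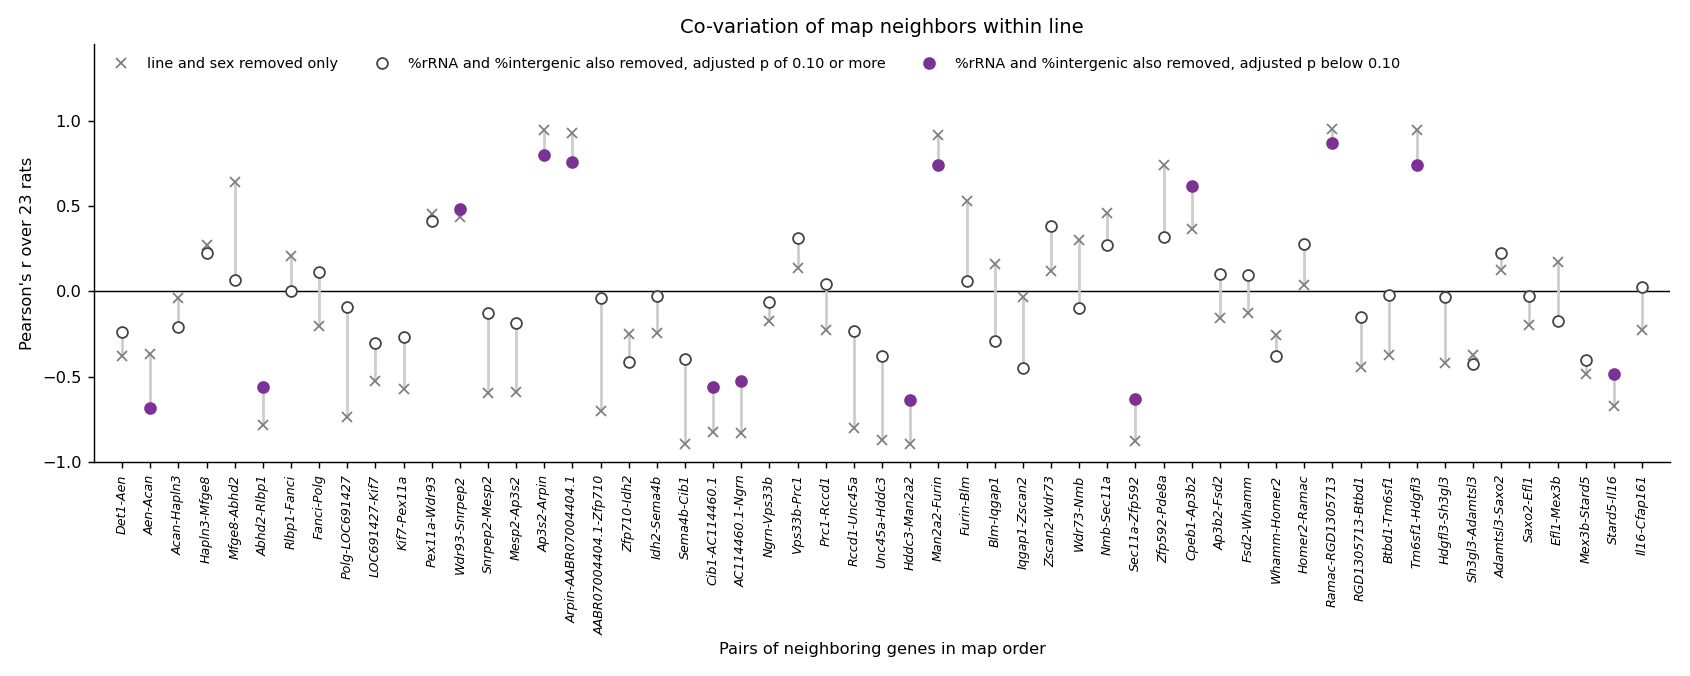
Pearson's r over 23 rats for 55 pairs of neighboring genes in map order, with line and sex removed (crosses) and with %rRNA and %intergenic removed as well (circles, filled for the 14 pairs with adjusted permutation p < 0.10). Most crosses lie farther from 0 than the circles, and the filled circles reach 0.87 for Ramac and RGD1305713.

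Pex11a and Wdr93, which face each other, had r = 0.41 and rho = 0.41 (adjusted permutation p = 0.152 and 0.156 over the 57 pairs), with 0.56 in bHRs, 0.19 in bLRs and 0.41 without the 2 farthest rats. Mfge8 had r = -0.22 with Pex11a and -0.37 with Wdr93 (rho 0.05 and -0.31, permutation p = 0.307 and 0.0819, adjusted over the 3 pairs of candidates 0.307 and 0.123). The former was -0.51 in bHRs and 0.42 in bLRs, and 0.29 without the 2 farthest rats. Of the other neighbors within 10 kb that stand head to head or overlap on opposite strands, 4 were among the 14 pairs given above (Arpin with AABR07004404.1, Cib1 with AC114460.1, Tm6sf1 with Hdgfl3 and Wdr93 with Snrpep2). The rest had adjusted permutation p from 0.152 to 0.983, among them Saxo2 and Efl1, with 74 bases between the gene ends (r = -0.03). Neighbors that were both called for %rRNA numbered 26, and in 22 of them r had the sign that the 2 slopes on %rRNA give, although %rRNA had been removed.

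The male and the female of a labelled family were compared for Mfge8, Pex11a and Wdr93 over the 11 families with both rats, after the same terms were removed. Fanci and Unc45a were not compared in this way. The correlations were r = 0.31 for Mfge8, 0.07 for Pex11a and 0.38 for Wdr93 (rho 0.31, -0.18 and 0.33), with permutation p of 0.406, 0.810 and 0.330 when females were permuted within line (adjusted 0.609, 0.810 and 0.609). Without the 2 farthest families, r was 0.28, 0.05 and -0.04. A resemblance within families was not detectable with 11 pairs.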

How the data were processed

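The authors prepared poly-A selected libraries, aligned reads to Rnor6 with STAR 2.7.3a (unique hits) and summed them per gene, reading strand, with Subread 2.0.0. What the authors deposited are these raw counts, without scaling or filter. Counts were tested with edgeR 4.0.16 in R 4.3.3 (TMM, quasi-likelihood test) for lineage, sex, %rRNA and %intergenic, and the interaction model left out %intergenic, as the study did. Genes with 1 CPM in at least 6 of the 23 rats were tested, with Benjamini-Hochberg adjustment over all 13838. CPM are scaled by TMM. Standard errors are the Log2FC divided by the root of F. Co-variation used log2 CPM (prior count 2) in Python 3.11.15 with numpy 2.4.6.

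The same contrasts were refitted in DESeq2 1.42.0 and limma-voom (limma 3.58.1), with other scalings, filters and covariates, all 24 rats, and each rat left out. Members, groups and tests were chosen with earlier results of these data known. The 12 members with the smallest p, the 3 candidates, members called for sex and facing or correlated neighbors were given in full. The p-values measure the spread between rats. Promoters are from RefSeq (GRCr8). No coordinates were moved between builds. The fits and the correlation step were tested on simulated data. One member entered every fit and count but is not reported here or drawn.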

Additional observations from a re-analysis of the deposited data

Results flagged for a closer look

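In 52 tests of a highest or lowest rat within a group of line and sex, over the 12 members with the smallest p for lineage and Homer2, 2 rats stood apart, and chance alone sets apart about 1 group in 20. Both concerned Homer2. The bHR female of family H11 was at 13.1 CPM, above the other 4 bHR females at 10.9 to 11.4 CPM. The bHR male of family H02 was at 11.9 CPM, below the other 5 bHR males at 15.2 to 17.2 CPM. Without the H02 male the Log2FC of Homer2 for sex was -0.34 (FDR = 0.249), and without the H11 female it was -0.35 (FDR = 0.209).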

How the results depend on the processing

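All 12 members with the smallest p for lineage had the same direction in each of 35 other fits. These fits used largely the same rats from which the 12 were picked. Members called for lineage numbered 2 with DESeq2 (Pex11a and Wdr93), 3 with all 24 rats, and 0 to 6 with 1 rat left out, against 0. Calls over all genes were 2.38%, 2.12% and 0.703 to 3.16% in these fits, against 1.34%. Members at an unadjusted p under 0.05 for lineage numbered 5 without the bHR male of family H02, 5 in males alone and 3 in females alone, against 10. Members called for sex numbered 2 with DESeq2 and 0 with RLE size factors, upper quartile normalization, either looser filter, no technical covariates, %rRNA only, all 24 rats or a threshold of 0.05, and 0 to 2 with 1 rat left out, against 1. DESeq2 tested 51 members for sex and called 1.20% of all genes, the other settings with 0 called 0.0939% to 0.476%, and fits without 1 rat 0.130% to 1.15%, against 0.354%. The interaction gave 0 in each fit. Arpin turned from 0.09 to -0.063 without technical covariates, -0.10 with %rRNA only, -0.069 in males alone and -0.12 in females alone. Neighbor pairs numbered 30 without technical covariates (12 of them shared with the 14, without Aen with Acan and Cpeb1 with Ap3b2), 8 in bHRs alone and 9 in bLRs alone. The cause of these changes was not tested. With family as a random effect, the replicate block gave 0 members called for lineage and 1 for sex, and changed no call. Leaving out 1 rat also moved Log2FCs that were not called by over 1.5 times, for lineage in Hapln3 (to 0.13 without the bLR male of L09), Acan (0.18 without the bHR female of H11), Ap3b2 (0.11 without the bLR male of L06), Arpin (0.050, 0.058 and 0.149 without the bHR females of H02, H11 and H12) and Prc1 (-0.10 without the bLR female of L07), and for sex in Wdr73 (-0.095 without the bHR male of H02). In 11 members, Acan, Hapln3, Fanci, Kif7, Wdr93, Snrpep2, Mesp2, AC114460.1, Blm, Fsd2 and Adamtsl3, each rat had under 100 reads, which limits their precision.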
